A study of Mus musculus with 10 samples.

Results

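Mouse cells differentiated toward cardiomyocytes were compared after 72 h and after 24 h of exposure to TCDD (2,3,7,8-tetrachlorodibenzo-p-dioxin), with TCDD on both sides of the comparison. The members were the 2 libraries labelled TCDD 72 h and the 2 labelled TCDD 24 h, 4 of the 10 libraries of the series, described across all genes. All came from C57BL/6N-C2 embryonic stem (ES) cells that carried a plasmid joining the Nkx2.5 promoter to puromycin resistance and eGFP. Noggin (150 ng/ml), BMP4 (5 ng/ml) and then puromycin had been applied in sequence, a selection meant to keep cells with an active Nkx2.5 promoter. Both TCDD groups had 5 nM TCDD in DMSO at no more than 0.05% of the medium. The other groups were 2 libraries each of such cells with DMSO alone for 24 h, of such cells with 5 nM TCDD for 96 h, and of untreated ES cells. No vehicle library at 72 h was analysed here, so the length of exposure and the added days in culture cannot be told apart. The labels do not say that the 2 replicates of a group were separate cultures, so p-values measure only how far these libraries spread, and that spread may be technical.

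TCDD binds the aryl hydrocarbon receptor (AHR), which moves to the nucleus, pairs with ARNT and binds DNA at response elements with the core GCGTG. Genes of xenobiotic metabolism such as Cyp1a1 and Cyp1b1, and feedback genes such as Ahrr and Tiparp, are its textbook targets. Mouse ES cells keep a naive pluripotent state through factors such as Klf4, Esrrb, Nr0b1 and Prdm14. These are lost early on leaving that state, while Pou5f1 (Oct4) persists longer.

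The promoters of both P450 genes are shown because they are the classical AHR targets and their transcripts differed between the times. The sequences run from 250 bases before to 50 bases after the start (RefSeq, GRCm38.p6), on the gene's strand, at chr9:57697363-57697662 on the plus strand for Cyp1a1 and chr17:79715012-79715311 on the minus strand for Cyp1b1. Capitals mark GCGTG, or CACGC where the core lies on the opposite strand.
Cyp1a1: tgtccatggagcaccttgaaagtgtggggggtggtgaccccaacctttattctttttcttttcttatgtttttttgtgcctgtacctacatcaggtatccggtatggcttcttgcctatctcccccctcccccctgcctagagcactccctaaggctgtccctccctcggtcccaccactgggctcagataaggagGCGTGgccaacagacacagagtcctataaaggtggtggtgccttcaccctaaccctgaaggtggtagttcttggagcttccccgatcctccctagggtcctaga
Cyp1b1: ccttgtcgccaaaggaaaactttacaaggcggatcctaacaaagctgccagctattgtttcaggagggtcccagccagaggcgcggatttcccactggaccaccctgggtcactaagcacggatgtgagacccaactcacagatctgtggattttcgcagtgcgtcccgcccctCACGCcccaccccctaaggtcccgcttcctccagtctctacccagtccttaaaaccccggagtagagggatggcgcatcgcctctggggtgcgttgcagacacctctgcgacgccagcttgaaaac
Each window held 1 match. The core was searched on both strands, and 54.0% of the 11934 tested genes with a promoter in the table held it in a window of this length, so its presence sets neither gene apart.

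The main finding was a set of pluripotency transcripts that were lower at 72 h of TCDD than at 24 h, together with Cyp1a1 and Cyp1b1 transcripts that were higher, in data where the call depended on the fit. Of 15175 genes tested with edgeR on all 10 libraries, 0 had a p under 0.05 after Benjamini-Hochberg adjustment (0% called), and the smallest adjusted p was 0.149. At an unadjusted p under 0.05 the same fit had 3285 genes (21.6%), 1970 higher at 72 h (13%) and 1315 lower (8.67%). The libraries of the 2 times did not overlap for 8480 genes (55.9%), with 72 h on the higher side for 4422 (29.1%) and on the lower side for 4058 (26.7%). limma-voom called 0 genes, and DESeq2 called 489 higher (3.22%) and 133 lower (0.876%). A fit of the 8 libraries labelled cardiomyocytes, without the ES libraries, called 841 of 15045 genes higher at 72 h (5.59%) and 399 lower (2.65%), 1240 in all (8.24%). That fit is named below as the cardiomyocyte fit. It called 0 genes without 24 h replicate 1 and 0 without 72 h replicate 1, but 4096 without 24 h replicate 2 and 5071 without 72 h replicate 2. With replicate 1 of both times left out together it called 309 genes higher and 574 lower, and 445 of these 883 were among the 1240 called with all 8 libraries. Fits with a replicate left out had 1 library at that time and took their spread from the groups that kept 2. Below, "passed" refers to the cardiomyocyte fit, and values are given for genes that did not pass. Counts of list members that passed are to be read beside the 5.59% of all genes higher and 2.65% lower. In a pair of values joined by "against", 24 h comes first unless said otherwise.

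The 4 libraries differed in ways the groups do not account for. Totals were 27957733 and 28611428 counts for 24 h replicates 1 and 2, and 15326612 and 21727599 for 72 h replicates 1 and 2. The 45S ribosomal RNA precursor Rn45s took 10.95% of counts in 72 h replicate 1 and 2.47 to 4.22% in the other 3. Malat1, a nuclear RNA, reached 2777 CPM (counts scaled to TMM-adjusted library size) there against 418 CPM in 72 h replicate 2 and 84.9 and 229.8 CPM at 24 h. In 24 h replicate 1 the counts relative to the average library varied by 1.17 log2 units along gene GC content, against 0.18 to 0.34 in the other 3. The chi-square between replicates, per gene with at least 50 counts, was 86.5 at 24 h and 192 at 72 h, but 3.23 for DMSO and 18.9 at 96 h. The parts of these features in the results below were not tested, and their values are given beside the gene groups they move with.

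**Figure D1:**
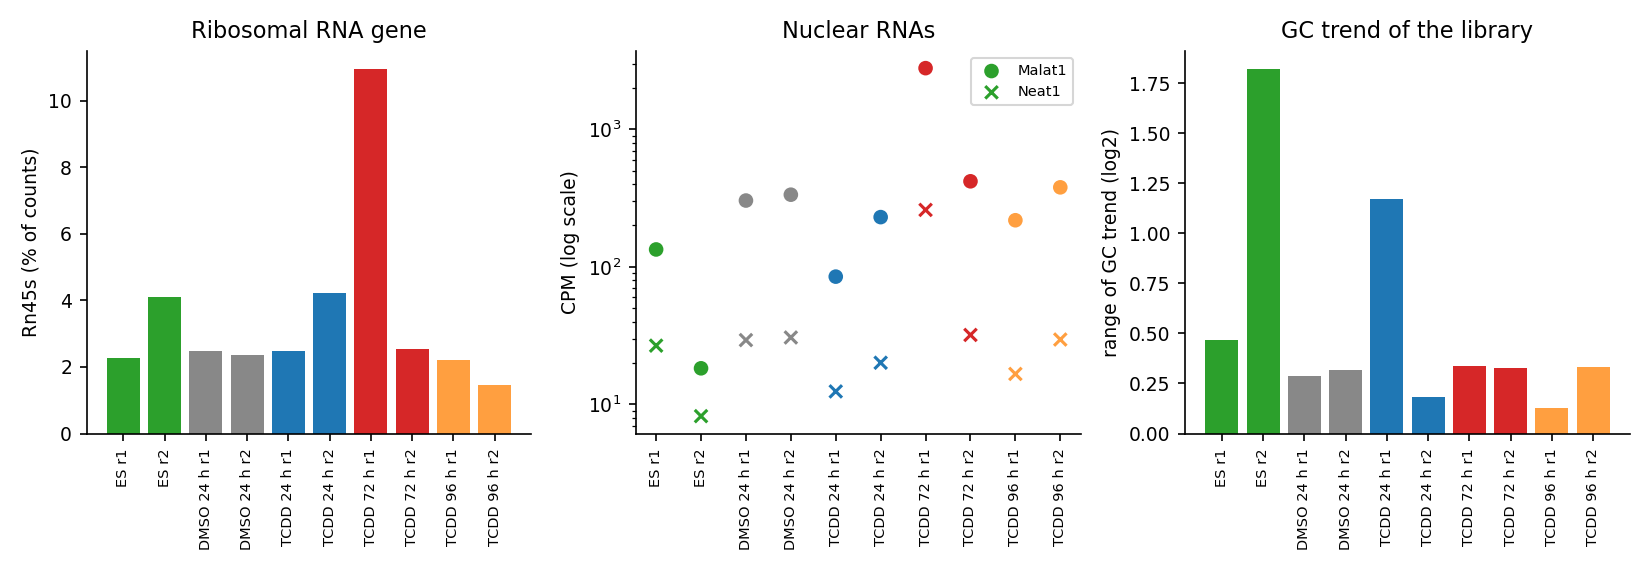
Rn45s as a percentage of counts (left), Malat1 and Neat1 in CPM on a log axis (middle) and the range of the GC trend in log2 units (right) for each of the 10 libraries, r1 and r2 being replicates 1 and 2. TCDD 72 h replicate 1 stands at 10.95% Rn45s and 2777 CPM of Malat1, and TCDD 24 h replicate 1 at a GC range of 1.17.

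The labelled cell type was checked against its markers. Transcripts of the pluripotency factor Pou5f1 were at 1516 and 1218 CPM at 24 h and at 806 and 946 CPM at 72 h, against 1272 and 2089 CPM in ES cells. All 10 core pluripotency genes had a mean above 10 CPM over the 4 libraries. The sarcomere list has 20 genes, and 9 of them averaged under 1 CPM while 3 averaged above 10 CPM. Tnnt2, cardiac troponin T, lay between 0.19 and 0.40 CPM, and Nkx2-5, whose promoter drove the selection, between 1.09 and 2.48 CPM. The markers thus go against a pure cardiomyocyte culture, and the cells are called by their labels only. In bulk RNA, fewer cells of a type and less RNA per cell cannot be told apart.

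Of the AHR targets, Cyp1a1 and Cyp1b1 passed as higher at 72 h. Cyp1a1, the P450 most used as a readout of AHR activation, was at 9.14 and 7.5 CPM at 24 h and at 14.4 and 17.5 CPM at 72 h, with 1.25 and 0.96 CPM in DMSO. Both 72 h libraries lay above both 24 h libraries, as for 29.1% of all genes, and all 4 lay above DMSO. The fitted difference was 0.94 ± 0.32 (log2, SE), 1.92-fold, with an edgeR adjusted p of 0.174 on 10 libraries and 0.0413 in the cardiomyocyte fit. Cyp1b1, a related P450 (chr17:79706952-79715041), was at 4.61 and 6.23 CPM at 24 h and at 15.0 and 12.4 CPM at 72 h. Its 24 h values overlapped the 5.56 and 5.97 CPM of DMSO, whereas its 72 h values were clear of them. The difference was 1.33 ± 0.26, 2.52-fold, and Cyp1b1 passed with an adjusted p of 0.0413.

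Of the 8 AHR targets listed, 6 were tested. Cyp1a1 and Cyp1b1 passed as higher (5.59% of all genes did), and none passed as lower. The median difference was 0.74 against 0.04 over all genes. With an offset for each library's GC trend these medians were 0.40 and -0.08. Ahrr, the AHR repressor, was at 0.42 and 0.40 CPM at 24 h and 1.27 and 0.98 CPM at 72 h, a difference of 1.43 ± 0.49 from 22 and 42 counts in all. It did not pass (adjusted p 0.0575 in the cardiomyocyte fit). Tiparp, a feedback ADP-ribosyltransferase, had 32.3 and 50.2 CPM at 24 h and 55.0 and 64.6 CPM at 72 h and did not pass. Its difference of 0.54 became -0.20 with that offset, so its direction rests on that setting. Nqo1, a quinone reductase, overlapped between the times, at 66.0 and 62.0 CPM against 39.7 and 102 CPM. Aldh3a1, an aldehyde dehydrogenase induced by dioxin in liver, went the other way, from 1.46 and 0.80 CPM to 0.57 and 0.53 CPM, and did not pass. Cyp1a2 had at most 0.08 CPM and Ugt1a6a had 0 counts in the 4 libraries.

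Among the receptor, its partners and its chaperones, 1 of 9 passed as higher and 1 as lower (5.59% and 2.65% of all genes did). Ahr itself had a mean of 7.47 ± 2.04 CPM at 24 h and 14.3 ± 0.20 CPM at 72 h (SD, n = 2) and passed with a difference of 0.94. Hsp90ab1, the HSP90 chaperone that holds AHR in the cytoplasm, was at 8602 and 8100 CPM at 24 h and at 4127 and 5585 CPM at 72 h, and passed as lower (difference -0.78 ± 0.23, adjusted p 0.0484).

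**Figure D2:**
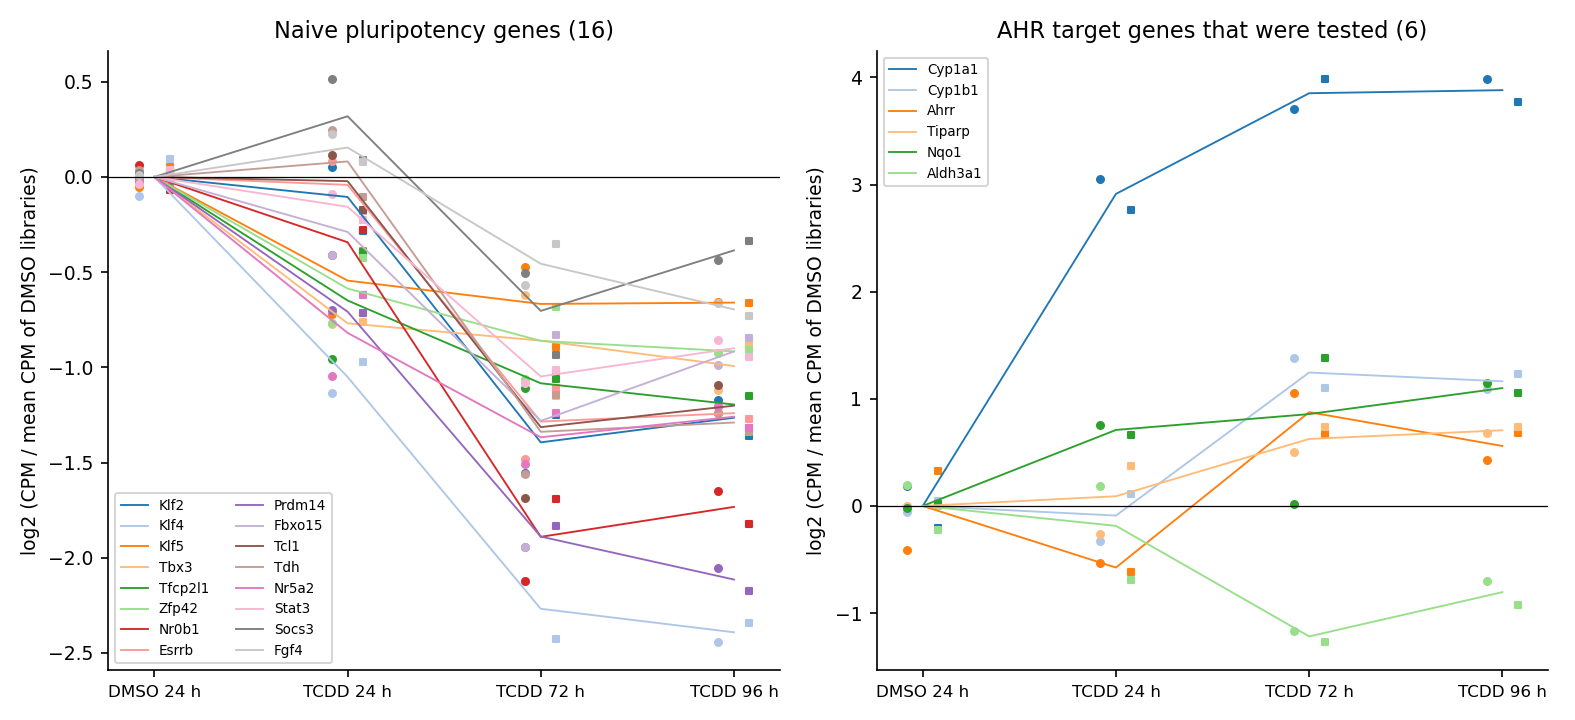
Log2 of CPM relative to the mean of the DMSO libraries for the 16 naive pluripotency genes (left) and the 6 AHR targets tested (right) in the 4 groups of cells labelled cardiomyocytes. Circles are replicate 1, squares replicate 2, and lines join group means. Most naive genes lie lower at 72 and 96 h than at 24 h, and Cyp1a1 lies above DMSO at all 3 TCDD times.

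Naive pluripotency transcripts made up the list with the lowest median. All 16 members were tested and all 16 fitted differences were below 0, with a median of -1.01 against 0.04 over all genes. In the 10-library fit 11 had an unadjusted p under 0.05, all lower (8.67% of all genes were). In the cardiomyocyte fit 10 passed as lower (2.65% of all genes did). Summed over the list, the level was 1380 and 1247 CPM at 24 h and 583 and 720 CPM at 72 h, with 1426 to 1445 CPM in DMSO. The 24 h libraries thus lay just under DMSO and the 72 h libraries well under both, without overlap. With replicate 1 of both times left out, which left 1 library at each time, the median was -0.84. With the GC offset 13 passed, beside 1381 of all 15045 genes, and the median was -1.08. Leaving out 24 h replicate 1 or 72 h replicate 1 alone ended all calls of that fit, and the median was then -0.99 or -0.93.

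Nr0b1 (Dax1), a nuclear receptor of the naive network on chromosome X at 86191774 to 86195946, had the smallest p of all named genes in the 10-library fit. It was at 20.4 and 22.3 CPM at 24 h and at 6.22 and 8.38 CPM at 72 h, against 28.3 and 25.9 CPM in DMSO. The groups did not overlap, and the difference was -1.54 ± 0.22, or 2.91-fold lower, with an adjusted p of 0.149 on 10 libraries and 0.0413 in the cardiomyocyte fit. Klf4, a Krüppel-like reprogramming factor on chr4:55527136-55532475, was at 19.7 and 22.0 CPM at 24 h and at 9.90 and 8.02 CPM at 72 h. Its DMSO libraries had 40.3 and 46.1 CPM, so Klf4 was stepwise lower from DMSO through 24 h to 72 h. The difference between the TCDD times was -1.22 ± 0.21, 2.33-fold lower, and it passed.

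Esrrb, an orphan nuclear receptor, was at 257 and 214 CPM at 24 h, near the 248 and 238 CPM of DMSO, and at 86.8 and 112 CPM at 72 h (difference -1.24 ± 0.23). Klf2 had 182 and 144 CPM at 24 h and 59.6 and 73.8 CPM at 72 h (-1.29 ± 0.27). Prdm14, a repressor that also acts in germ cells, had 6.91 and 6.85 CPM at 24 h and 2.92 and 3.15 CPM at 72 h (-1.18 ± 0.20). All 3 passed with no overlap between the times. Tdh, the threonine dehydrogenase characteristic of mouse ES cells, was at 372 and 291 CPM at 24 h and at 106 and 142 CPM at 72 h (-1.42 ± 0.26) and passed. Tcl1, Stat3, Socs3 and Fgf4 also passed as lower, with differences of -1.29, -0.89, -1.03 and -0.61. Stat3 and its feedback inhibitor Socs3 belong to the response to LIF, the cytokine that holds mouse ES cells in the naive state.

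Members that did not pass were Fbxo15 (-0.99), Nr5a2 (-0.55), Tfcp2l1 (-0.43), Zfp42 (-0.27), Klf5 (-0.13) and Tbx3 (-0.10). Klf5, Tbx3 and Zfp42 overlapped between the times. Nr5a2 had 13.9 and 18.7 CPM at 24 h and 10.2 and 12.2 CPM at 72 h, where DMSO had 28.5 and 29.1 CPM. Members of the list ranged from a difference of -1.54 to one of -0.10, and whether members differed from each other was not tested.

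Core pluripotency genes differed less. Of 10 members 8 were lower, the median was -0.48, and 1 passed, Utf1, a chromatin-bound ES cell factor (802 and 578 CPM against 361 and 390 CPM, difference -0.88 ± 0.29, adjusted p 0.0413). Pou5f1 had a difference of -0.64 ± 0.26, Nanog of -0.65 ± 0.19 and Sox2 of -0.45 ± 0.20. These 3 did not pass. Both 72 h libraries were below both 24 h libraries for each, as they were for 26.7% of all genes. Nanog was at 339 and 369 CPM at 24 h and at 196 and 256 CPM at 72 h, with 447 and 435 CPM in DMSO. Sall4, Lin28a, L1td1 and Sall1 overlapped between the times.

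Formative genes, which mark the state between naive pluripotency and lineage choice, lay in both directions. The list median was -0.48 over 11 members, and 1 passed, Otx2, lower at 55.3 and 50.1 CPM at 72 h than at 80.4 and 78.4 CPM at 24 h. DMSO had 39.6 and 41.5 CPM of Otx2, so the 24 h libraries were the highest. The de novo methyltransferase genes Dnmt3a and Dnmt3b had differences of -0.81 ± 0.24 and -0.61 ± 0.20 and did not pass (adjusted p 0.0511 and 0.0583). Fgf5, a classical marker of the primed epiblast, was higher, at 29.7 and 44.5 CPM against 65.4 and 59.6 CPM, with an adjusted p of 0.0509. Pou3f1 and Sall2, also formative genes, overlapped between the times, with differences of -0.09 and 0.05.

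The remaining genes with the smallest p among those lower at 72 h were of mixed function. Sept1, a septin of the cytoskeleton (chr7:127214441-127218445), was at 77.5 and 55.2 CPM at 24 h and at 14.5 and 16.4 CPM at 72 h, with 54.1 and 53 CPM in DMSO. Its difference of -2.10 ± 0.30, 4.29-fold lower, had the smallest adjusted p of the cardiomyocyte fit, 0.0225. Lgals9, the lectin galectin-9, had 29.6 and 25.2 CPM at 24 h and 5.59 and 9.31 CPM at 72 h (-1.87 ± 0.32). Tfap2c, an AP-2 transcription factor of germ cells and trophoblast, had 113 and 96.6 CPM at 24 h and 38.3 and 51.1 CPM at 72 h (-1.22 ± 0.22). Mymx, the fusion peptide of skeletal myoblasts, had 19.2 and 15.1 CPM at 24 h and 6.22 and 6.03 CPM at 72 h (-1.48 ± 0.27). Cdyl2, a chromodomain protein, Hsf2bp, a meiotic recombination factor, Cpne5, a copine, and Dcaf12l1 had differences of -1.41, -1.21, -1.11 and -1.03. All of these passed, with no overlap between the times. For Cdyl2, Mymx, Tfap2c, Tdh and Hsf2bp the 72 h libraries were below DMSO as well as below 24 h.

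**Figure D3:**
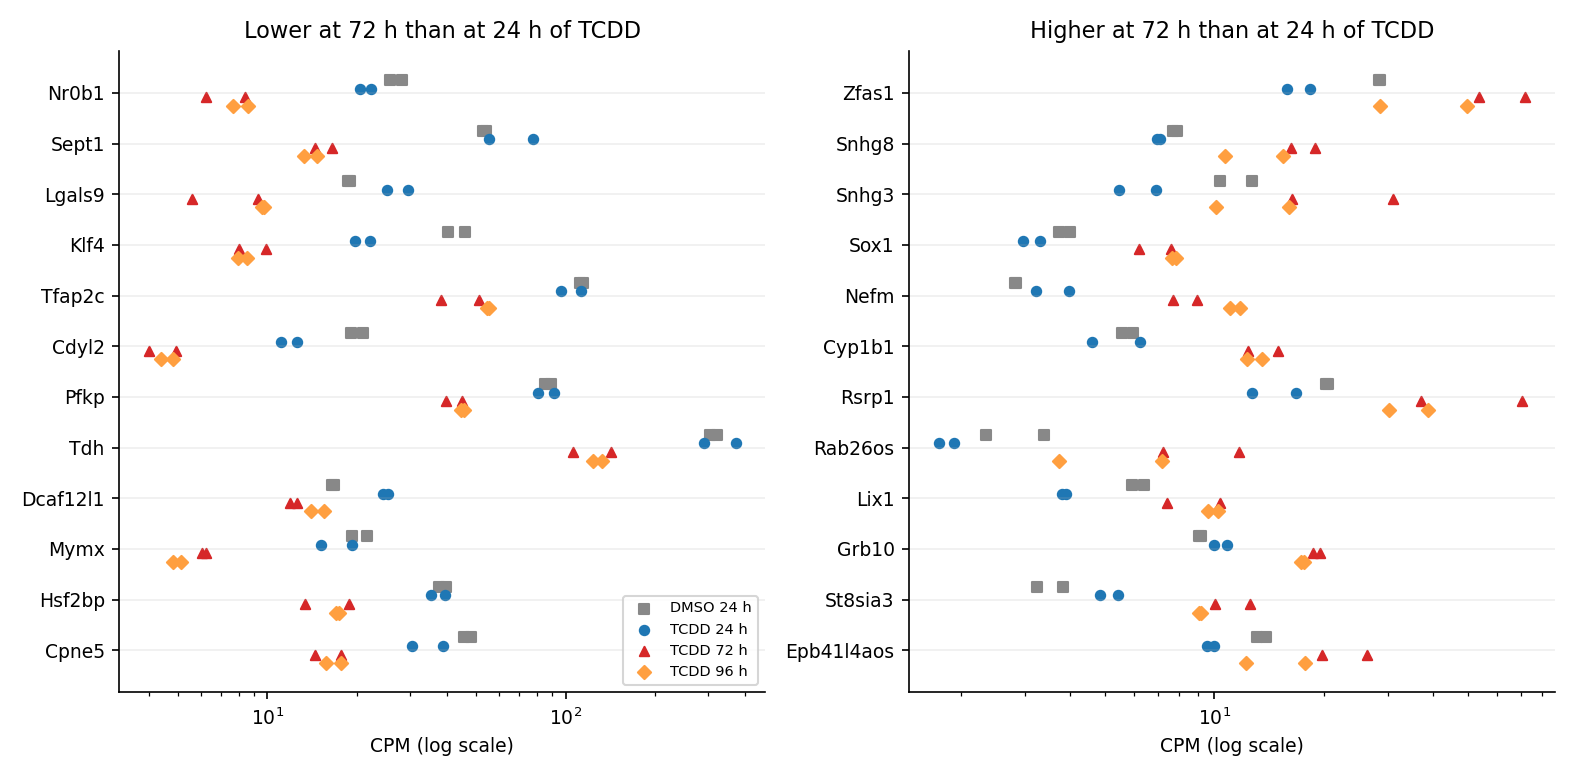
CPM on a log axis in each of the 8 libraries labelled cardiomyocytes for the 12 genes with the smallest p lower at 72 h than at 24 h of TCDD (left) and the 12 higher (right), 2 points per group. Triangles (72 h) lie clear of circles (24 h) for all 24 genes, which were chosen for not overlapping. The 96 h libraries (diamonds) lie near 72 h for those on the left.

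Glycolysis transcripts were lower at 72 h than at 24 h, with the 24 h libraries standing above DMSO. All 21 members had a difference below 0, the median was -0.75, and 7 passed as lower (2.65% of all genes did). Their sum was 22230 and 17190 CPM at 24 h, 11820 and 13310 CPM at 72 h, and 12740 to 13400 CPM in DMSO. The sums at 72 h were thus near DMSO, unlike those of the naive genes. Hk1, a hexokinase, was at 110 and 82.8 CPM at 24 h, 30.0 and 49.4 CPM at 72 h and 73.3 and 71.8 CPM in DMSO (-1.28 ± 0.30). Pfkp, the platelet form of phosphofructokinase, had 91.3 and 81.0 CPM at 24 h and 39.7 and 44.8 CPM at 72 h (-1.03 ± 0.19), and its DMSO libraries were level with 24 h. Pfkm, Aldoc, Tpi1, Aldoa and Ldha passed with differences of -0.91, -1.10, -0.89, -0.80 and -0.84. Gapdh (-0.64), Pgk1 (-0.75) and Pkm (-0.63) did not pass. Eno1 had under 1 CPM in each of the 4 libraries, a level that is uncertain because a near-identical copy of the gene can share its reads. Without 24 h replicate 1, the library with the wide GC trend and the highest glycolysis sum, the list median was -0.54. It was -0.40 with replicate 1 of both times left out.

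Other metabolic and growth lists had medians below 0, with few members passing. DNA replication genes had a median of -0.51, and 2 of 20 passed as lower (2.65% of all genes did). These were Tk1, a thymidine kinase (102 and 74.5 CPM against 45.6 and 48.8 CPM), and Mcm3, of the replicative helicase (692 and 563 CPM against 317 and 418 CPM). Cholesterol synthesis genes had a median of -0.24, with Mvk, Mvd and Fdps passing as lower at -0.92, -0.89 and -0.89. Without replicate 1 of both times the DNA replication median was -0.28 in the 10-library fit. Fatty acid oxidation genes had a median of -0.47 and respiratory chain genes of -0.29. Without 72 h replicate 1 these 2 medians were -0.20 and -0.11, and with replicate 1 of both times left out they were -0.10 and -0.08. None of the 19 fatty acid oxidation genes passed, and Cox7b was the 1 of 25 respiratory chain genes that did, as higher (1.21 ± 0.39). The respiratory chain sum was 4887 CPM in 72 h replicate 1, 7610 CPM in replicate 2 and 6825 to 7264 CPM in DMSO.

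Genes higher at 72 h included regulators of several lineages. Sox1, an early neural factor on chromosome 8, was at 3.30 and 2.97 CPM at 24 h and at 7.62 and 6.21 CPM at 72 h, with 3.73 and 4.01 CPM in DMSO (1.14 ± 0.21). Nefm, the medium neurofilament chain, had 3.23 and 3.99 CPM at 24 h and 8.95 and 7.71 CPM at 72 h (1.21 ± 0.23). Grb10, an imprinted adaptor that dampens insulin signalling (chr11:11930498-12037420), had 9.98 and 10.8 CPM at 24 h and 18.7 and 19.6 CPM at 72 h (0.88 ± 0.18). For Grb10 the 2 libraries of each time were close together, 72 h replicate 1 included. Lix1 and St8sia3, a sialyltransferase of the nervous system, had differences of 1.20 and 1.14. All 5 passed with an adjusted p of 0.0413. Of the 9 neural genes tested only Sox1 passed, the list median was 0.09, and the neuronal tubulin Tubb3 was lower without passing (163 and 123 CPM against 57.4 and 94.2 CPM).

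Of the 13 primitive streak genes tested, 3 passed as higher at 72 h (5.59% of all genes did). The 72 h libraries differed from each other. T (brachyury), the defining streak factor, was at 2.92 and 2.72 CPM at 24 h and at 27.4 and 7.14 CPM at 72 h, with 2.23 and 2.34 CPM in DMSO. Both 72 h libraries were above the rest, replicate 1 far more so, and T passed (2.60 ± 0.55, adjusted p 0.0413). Mixl1, a homeobox factor of mesendoderm, had 0.77 and 0.65 CPM at 24 h and 2.73 and 1.42 CPM at 72 h. Wnt3, the ligand that starts streak formation, had 8.45 and 7.10 CPM at 24 h and 18.3 and 12.3 CPM at 72 h. Both passed. The median of the list was 0.97, but without 72 h replicate 1 it was -0.23 and with replicate 1 of both times left out -0.12, below 0. The summed level was 482 CPM in 72 h replicate 1 and 304 CPM in replicate 2, beside 458 and 353 CPM at 24 h, so the sums of the times overlapped. Fgf8, Eomes and Evx1 were at 21.4, 21.3 and 14.1 CPM in 72 h replicate 1 but at 3.46, 8.16 and 4.12 CPM in replicate 2, below the higher of their 24 h libraries.

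Among p53 targets, 5 of 16 passed as higher (5.59% of all genes did) and none as lower. The median was 0.32 against 0.04 over all genes. With the GC offset on the 8 libraries 3 passed as higher, beside 801 of all 15045 genes, and these medians were 0.20 and -0.08. Mdm2, the ubiquitin ligase of p53, was at 48.1 and 94.8 CPM at 24 h and at 160 and 173 CPM at 72 h, with 108 and 124 CPM in DMSO. Trp53inp1, Ccng1, Pmaip1 and Eda2r also passed, with differences of 1.79, 1.14, 1.37 and 0.88. In all 5, 24 h replicate 1 was the lowest of the 4 libraries and lay below DMSO. Cdkn1a (p21) did not pass, at 188 and 138 CPM against 205 and 186 CPM. Without 24 h replicate 1 the median was 0.45, and with replicate 1 of both times left out it was 0.55. These fits left 1 library at 24 h, so their calls cannot show whether the list depends on that library.

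Hox genes had a median of 1.20 at low levels. It was 0.77 without 72 h replicate 1, 0.73 with replicate 1 of both times left out and 1.71 without 72 h replicate 2. Of these genes, 16 of the 24 listed had a mean under 1 CPM over the 4 libraries. Hoxd1 and Hoxd8 passed, at 0.23 and 0.22 CPM against 0.95 and 0.71 CPM and at 0.12 and 0.04 CPM against 0.76 and 0.44 CPM. In all, 11 of the 21 tested had an unadjusted p under 0.05 in the 10-library fit, each of them higher at 72 h (13% of all genes were). The limit that 3 counts set was 0.105 to 0.196 CPM in these libraries, so the 24 h values of Hoxd8 were at or under what the depth can show. Of 9 regulators of the epithelial to mesenchymal transition, Cdh2 (N-cadherin) passed at 4.45 and 6.12 CPM against 11.2 and 10.2 CPM, and Cdh11 passed at 0.77 and 0.83 CPM against 3.74 and 2.00 CPM. DMSO had 8.07 and 10.6 CPM of Cdh2, so for this gene the 24 h libraries were the low ones. Snai1, which represses E-cadherin, overlapped between the times.

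The cardiac lists showed few differences. Of 14 cardiac transcription factors tested, 1 passed as higher (5.59% of all genes did). Their median difference of 0.29 turned to -0.14 with the GC offset and to -0.05 without 72 h replicate 2. Nkx2-5 was at 1.57 and 1.09 CPM at 24 h and at 1.97 and 2.48 CPM at 72 h and did not pass. None of 18 sarcomere genes passed, and the median was -0.01. Myh6, the alpha myosin heavy chain, was at 11.5 and 11.1 CPM against 9.65 and 12 CPM, a difference of -0.06 that turned to 0.08 without 72 h replicate 1. Ttn (titin) was at 4.49 and 14.5 CPM at 24 h and at 65.3 and 18.8 CPM at 72 h, its high value resting on 72 h replicate 1. Of 6 cardiac stress genes tested, 1 passed, as lower. It was Acta1, skeletal actin, at 80.9 and 57.6 CPM against 38.8 and 41.2 CPM. Outside the cardiac lists, Mylpf, a skeletal fast myosin light chain, passed as lower at 179 and 149 CPM against 49.6 and 73.8 CPM. Acta2, smooth muscle actin, did not pass (275 and 199 CPM against 72.5 and 165 CPM). Of 10 endothelial, 8 blood and 10 epicardial markers tested, 1 passed, Aldh1a2, as lower.

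Genes with symbols of small RNAs, Snhg host genes or predicted genes were frequent among those higher at 72 h. Each of the nuclear retained RNAs given below was highest in 72 h replicate 1. That class made up 20% of the 841 genes that passed as higher, 2.51% of the 399 that passed as lower and 5.85% of all genes in that fit. It was set by symbol alone (Snor, Scarna, Snhg, Mir, Rnu, Gm or Rik), so its members need not be small or noncoding. All 10 nuclear retained RNAs were higher, with a median of 3.15, and 9 passed. Kcnq1ot1, the antisense RNA of an imprinted cluster, was at 17.4 and 45.0 CPM at 24 h and at 767 and 96.1 CPM at 72 h, with 79.7 and 98.8 CPM in DMSO. Its 72 h replicate 2 was at the level of DMSO and replicate 1 far above it. Neat1, the scaffold of paraspeckles, was at 12.4 and 20.1 CPM at 24 h and at 259 and 32.0 CPM at 72 h, and Meg3 at 37.3 and 47.6 CPM and at 510 and 78.4 CPM. Without 72 h replicate 1 the median of the list was 1.42, and with replicate 1 of both times left out it was 1.09.

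Among the 12 named genes higher at 72 h, the small nucleolar RNA host genes Zfas1, Snhg8 and Snhg3 had the smallest p in the 10-library fit. Zfas1 was at 15.9 and 18.3 CPM at 24 h and at 71.9 and 53.5 CPM at 72 h (1.88 ± 0.33), against 28.6 and 28.5 CPM in DMSO. Snhg8 had 7.10 and 6.96 CPM at 24 h and 18.9 and 16.3 CPM at 72 h (1.32 ± 0.23). Snhg3 had a difference of 1.93. Rsrp1, a protein-coding gene, and the antisense genes Rab26os and Epb41l4aos had differences of 1.87, 2.36 and 1.24. All 6 passed, and in each 72 h replicate 1 was the higher of the pair. The strand setting of the counting is unknown here, so reads of antisense genes such as Rab26os, Epb41l4aos and Kcnq1ot1 cannot be told apart from those of their partners.

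The genes that passed in the 2 directions differed in features the test did not use. Median GC content was 43.44% for those higher and 54.14% for those lower, against 50.16% over all genes in the fit. Median transcript length was 4308 bases, 2761 bases and 3287 bases in the same order. Relative to DMSO, the median level of the higher genes was -1.14 and -0.53 in the 24 h replicates and 1.04 and 0.32 in the 72 h replicates (log2). For the lower genes it was 0.47 and 0.14 at 24 h and -0.66 and -0.45 at 72 h. In both sets replicate 1 of each time lay farther out than replicate 2. Their own part in the calls was not tested, beyond the fits with these libraries left out. GCGTG was found in 48.4% of the promoters of the higher genes and 52.3% of those of the lower genes, beside 54.0% for all genes tested.

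The TCDD 96 h and DMSO 24 h libraries were used in neither side of the comparison and served as a second look at the same genes. TCDD exposure and time both differed between them. They did enter the filter, scaling and spread estimates of the fits that called the genes. The second look was therefore not independent of the calls. Of the 399 genes that passed as lower at 72 h, 365 (91.5%) were also lower at 96 h than in DMSO, with a median of -0.42. Over all genes with a difference below 0, this share was 52.7%. Of 840 genes that passed as higher and were tested there, 455 (54.2%) were higher at 96 h than in DMSO, against 54% of all genes with a difference above 0, and the median was 0.06. The share was well above that of all genes for the lower set and at that of all genes for the higher set, and neither difference was tested. The 10-library fit called 13 genes between 96 h and DMSO (0.0857%). In the cardiomyocyte fit 186 genes were lower at 96 h than in DMSO (1.24%) and 194 higher (1.29%). Of the 399, 79 were among these 186 (19.8% of the 399 and 42.5% of the 186). Both sets came from the same fit with the same spread per gene, so a gene of small spread could pass in both. Of the 841, 28 were among the 194 (3.33% of the 841 and 14.4% of the 194), and 0 genes passed in opposite directions.

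The share for the lower set varied with the fit that made it. It was 92.2% for the genes lower with replicate 1 of both times left out, where the higher genes reached 79%. That fit kept 1 library at each time. Its spread came from the 96 h and DMSO libraries, which also gave this share. The share was 73.9% for the 1381 genes lower with the GC offset. Without 24 h replicate 2 and without 72 h replicate 2, where the fits kept 1 library of the group, it was 63.5% and 54.4%.

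**Figure D4:**
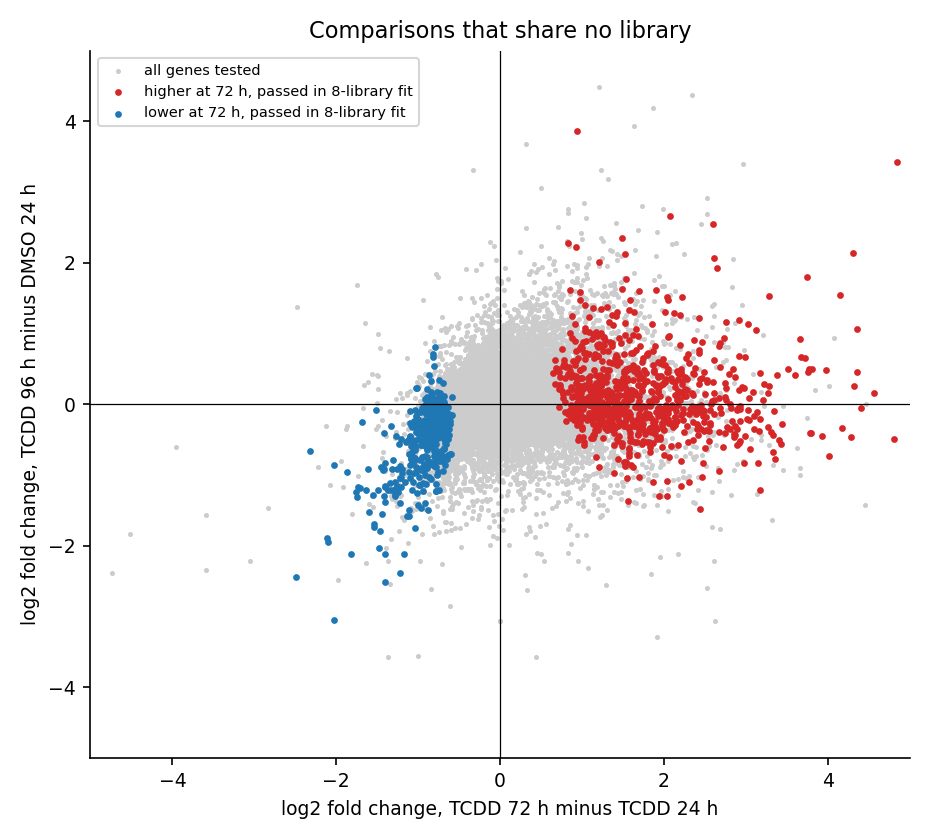
Fitted log2 fold change of each tested gene between TCDD 72 h and TCDD 24 h (x axis) and between TCDD 96 h and DMSO 24 h (y axis), comparisons that share no library. Both were fitted together. Blue points, lower at 72 h in the cardiomyocyte fit, lie mostly below 0 on the y axis (91.5%), and red points, higher at 72 h, on both sides (54.2% above).

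All 16 naive pluripotency genes were lower at 96 h than in DMSO, with a median of -1.20, and Klf4 was at 7.94 and 8.51 CPM at 96 h. Nr0b1 was at 8.63 and 7.65 CPM and Sept1 at 14.6 and 13.2 CPM, both close to 72 h. Among the higher genes, Cyp1a1 was at 17.5 and 15.1 CPM, Cyp1b1 at 12.3 and 13.5 CPM, T at 13.7 and 13.0 CPM, Sox1 at 7.84 and 7.65 CPM and Nefm at 11.1 and 11.8 CPM at 96 h. These 5, chosen after their values were seen, lay above DMSO there, whereas of the higher set as a whole 54.2% were higher at 96 h than in DMSO. Malat1 was at 218 and 378 CPM at 96 h, on either side of the 303 and 334 CPM of DMSO, and the median of the nuclear retained RNAs was -0.10. Glycolysis genes lay the other way, and 15 of 21 were higher at 96 h than in DMSO, and their median was 0.22.

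**Figure D5:**
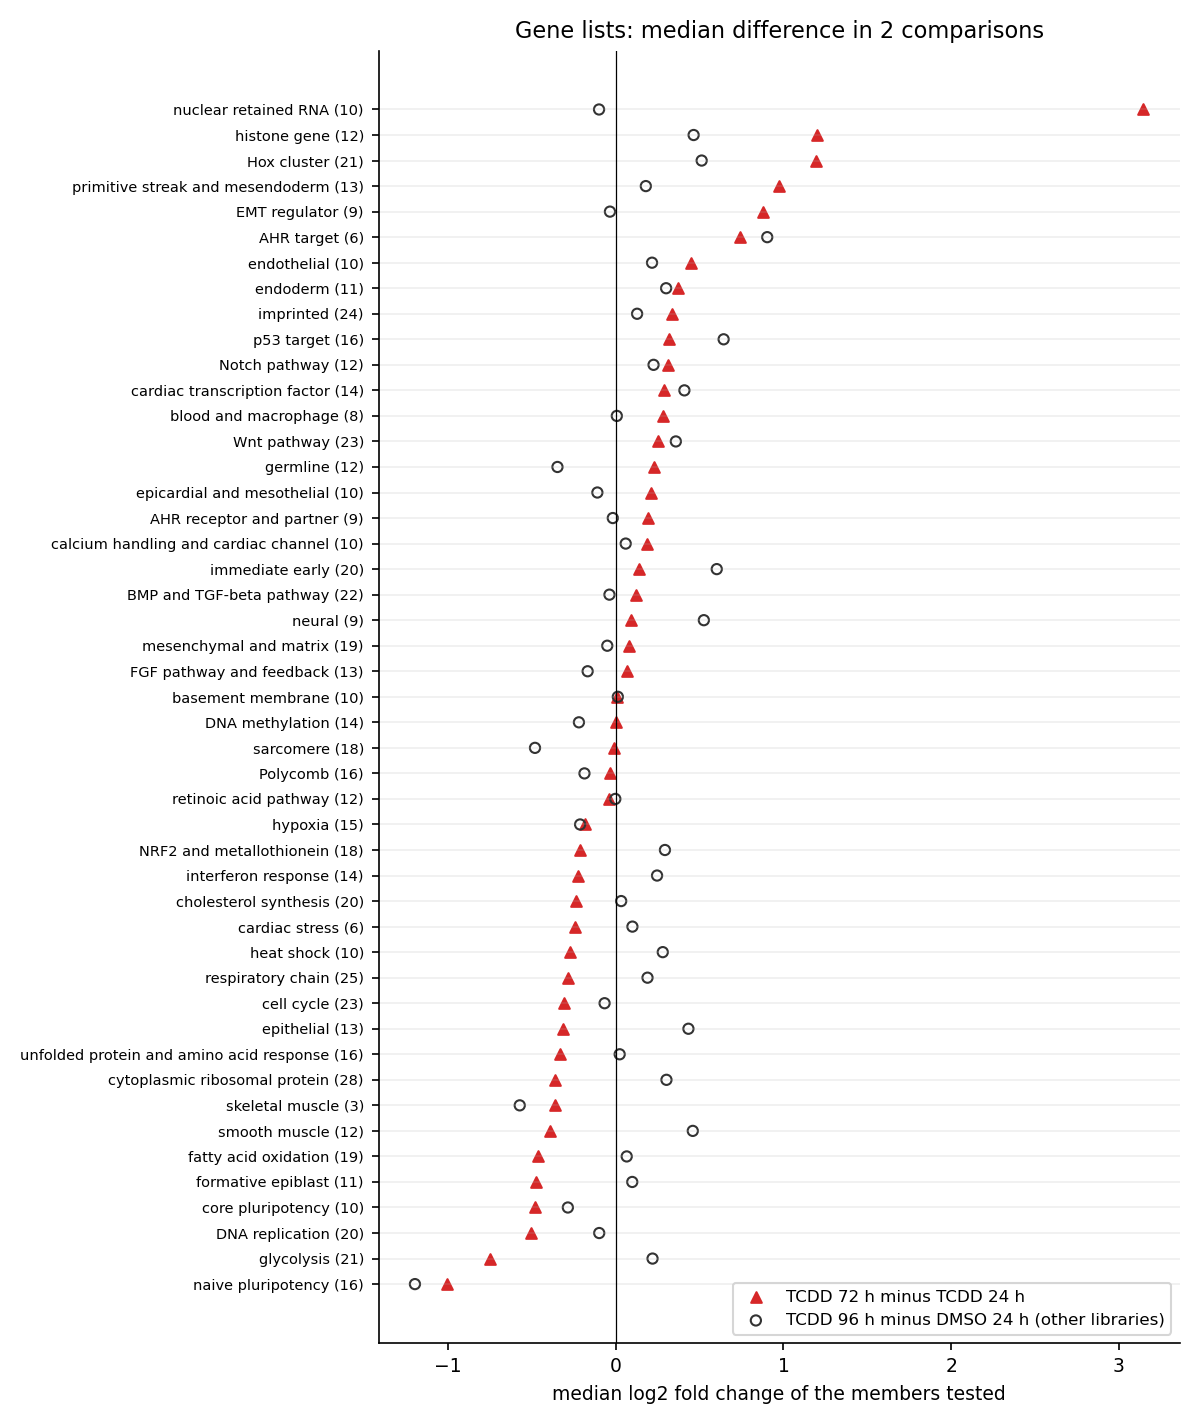
Median fitted log2 fold change of the tested members of 47 gene lists, between TCDD 72 h and TCDD 24 h (triangles) and between TCDD 96 h and DMSO 24 h (circles), with the number of tested members in brackets. Naive pluripotency lies near -1 in both, at -1.01 and -1.20, whereas nuclear retained RNA lies at 3.15 and -0.10 and glycolysis at -0.75 and 0.22.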

How the data were processed

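The labels' protocols describe stranded libraries of polyadenylated RNA, made with 8 PCR cycles and read as single 51 bp reads. The authors deposited 1 table of whole-number counts per gene, without normalization. Tools named in the submitters' processing notes are bcl2fastq, CASAVA 1.8, TopHat and edgeR, with build mm10, while how reads were counted, on which annotation and with which strand setting is not stated in what was used here. The 1 unnamed row of 24541 held at most 0.00285% of a library and was left out.

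The quasi-likelihood test of edgeR 4.0.16 (R 4.3.3) was fitted robustly to all 10 libraries, two-sided, each group having its own mean, after TMM scaling and edgeR's default filter on low counts. A prior count of 2 entered the log2 CPM values only, and the fitted differences used edgeR's default. The 4 libraries held 15326612 to 28611428 counts, and limits from depth cover counting error only. The members and lists were chosen with earlier results of these data known. As no gene passed, the rule named the 12 genes of smallest p in each direction (mean over the 4 libraries from 5 CPM up, no overlap, no predicted, small RNA or pseudogenes), 17 fixed genes and up to 4 members of each of 47 lists. Further list members were named after their values were seen. A gene that the rule names is not reported here. The direction at 96 h and the promoter motif were described for genes passing on the 8 libraries labelled cardiomyocytes. Alternatives were other scalings, filters, thresholds and sets of libraries, DESeq2 1.42.0, limma 3.58.1 (voom), a replicate block, removal of structural RNA genes and an offset for each library's GC trend (loess, span 0.3, GENCODE transcripts). Those that alter the 8-library fit were chosen after seeing the data. Coordinates are RefSeq GRCm38 spans matched by Entrez identifier. The edgeR script was tested on simulated data.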

Additional observations from a re-analysis of the deposited data

How the results depend on the processing

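The number of genes called depended on the setting. Against 0 on all 10 libraries it was 9 without a filter, 622 with DESeq2, 1240 on the 8 libraries labelled cardiomyocytes, 1430 on the 4 libraries compared, 5 with the GC offset and 0 to 1442 with 1 library left out. On the 8 libraries it was 4096 without 24 h replicate 2, 5071 without 72 h replicate 2, 883 without replicate 1 of both times, 2182 with the GC offset, 1598 with the replicate block and 2722 with DESeq2. List members called were 0 on 10 libraries, 1 without a filter, 38 with DESeq2, 72 on 8 libraries, 64 on 4 and 0 to 79 with 1 library left out. In the changed 8-library fits just listed they were, in order, 170, 285, 113, 124, 82 and 163. The share of genes at an unadjusted p under 0.05 with the same direction at 96 h against DMSO was 65.3%. It was 63.4% without a filter, 60.6% with DESeq2, 57% on the 8 libraries, 67.2% with the replicate block, 67.4% with the block and GC offset, 56.7 to 77.9% with 1 library left out and 81.1% without replicate 1 of both times. On the 8 libraries it was 67.5, 49.7, 67 and 53.4% without 24 h replicate 1, 24 h replicate 2, 72 h replicate 1 and 72 h replicate 2, then 72% without replicate 1 of both times, 62% with the GC offset, 56.6% with the block and 55.1% with DESeq2. The causes were not tested.

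Of 4072 values of 164 named genes under 25 settings, 4039 kept their sign and 33 reversed, in 8 genes. Tnnt2 was -0.011 without a filter, -0.005 with DESeq2 and -0.022 with the 8-library block. It ranged from -0.666 to 0.411 with 1 library left out (-0.192 and -0.669 with 1 of the 8 left out). Myh6 ranged from -0.257 to 0.083 with 1 library left out and was 0.083 with 1 of the 8 left out. It was 0.109 and 0.090 without replicate 1 of both times, 0.061 and 0.062 with the GC offset and 0.056 with its block. Rn45s ranged from -0.524 to 1.57 and was -0.840 and -0.859 without replicate 1 of both times. Nqo1 ranged from -0.718 to 0.672 and was -0.721 with 1 of the 8 libraries left out. It was -0.085 and -0.084 with the GC offset and -0.158 with its block. Tiparp was -0.197 and -0.203 with the GC offset and -0.189 with its block, and Sycp3 -0.101, -0.115 and -0.103. Evx1 ranged from -0.031 to 1.711, and Fgfr3 was -0.007 and -0.026 without replicate 1 of both times. The GC offset moved the median of all genes from 0.04 to -0.08.

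The differences between replicates 1 and 2 at 24 h and at 72 h were hardly correlated (r = -0.04 across 15175 genes). This does not show whether equal replicate numbers pair the samples, because the replicates also differed in GC trend and Rn45s. On 10 libraries the replicate block gave 0 calls in edgeR, as did the fit without it, with a smallest adjusted p of 0.254. With 2 libraries per group every call rests on few samples, and a gene near 3 counts in a library cannot be read at this depth. A fit that left 1 library in a group took its spread from the other groups.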

Other observations

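Chaperone and amino acid genes also held transcripts that passed as lower at 72 h in the fit of the 8 libraries labelled cardiomyocytes. Hspb1, a small heat shock protein, was at 490 and 356 CPM at 24 h and at 150 and 245 CPM at 72 h, against 305 and 289 CPM in DMSO, and was the 1 of 10 heat shock genes to pass. Asns, asparagine synthetase, was at 344 and 287 CPM and at 135 and 184 CPM, and Shmt2, of mitochondrial serine metabolism, at 298 and 210 CPM and at 153 and 147 CPM. In the same list Ddit3 (CHOP), the stress-induced transcription factor, passed as higher, at 3.15 and 2.65 CPM against 5.14 and 6.52 CPM. Within the cell cycle list, Ccnd3 and Ccne1 passed as lower (differences -1.11 and -0.71) and Ccnd2 and Ccne2 as higher (0.94 and 1.44). Ccnd2 was at 13.6 and 17.5 CPM at 24 h, 30.5 and 29.3 CPM at 72 h and 36.6 and 39.3 CPM in DMSO, so that its 24 h libraries were the low ones.

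Pdk1 and Egln3, both known as hypoxia-responsive genes, passed as lower, Pdk1 at 149 and 160 CPM against 98.8 and 84.7 CPM. Tet3, which oxidises methylcytosine, was at 11.7 and 15.3 CPM at 24 h and at 30.0 and 21.3 CPM at 72 h and passed as higher. Among Wnt pathway genes, Wnt7b passed as lower (38.9 and 27.4 CPM against 15.7 and 18.9 CPM). Sp5, a direct target of Wnt signalling, was at 6.80 and 5.07 CPM at 24 h and at 21.2 and 9.09 CPM at 72 h and did not pass (adjusted p 0.0506), and at 96 h it was at 19.5 and 14.0 CPM beside 3.64 and 3.73 CPM in DMSO. Histone genes had a median of 1.20, which was 0.26 without 72 h replicate 1 and 0.39 with replicate 1 of both times left out (10-library fit). Their levels were low, and 9 of the 16 listed had a mean under 1 CPM over the 4 libraries. Of the 12 histone genes tested, 0 passed in the 8-library edgeR fit. In the 10-library fit 6 had an unadjusted p under 0.05, all higher (13% of all genes were). Their sum was 41.3 CPM in 72 h replicate 1 and 20.4 CPM in replicate 2.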
